A study of Mus musculus with 23 samples.

Results

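In the count table of mouse hippocampus, 10 of 55335 genes were examined together as genes and gene copies that share reads: Rpl3, Rpl3-ps1, Rpl34, Rps3a1, Rps3a3, Gm8730, Gm15459, BC002163, Tuba1c and Eno1b. They were selected on these same libraries, by symbol, because their levels lay in steps or their counts shifted between a gene and its copy, so their levels, sums and strain differences are given as a description without a test. The 23 libraries came from 11 WT and 12 3xTg mice, all female. The WT-8M (n = 4) and 3xTg-8M (n = 4) groups were untreated mice of 8 months. The 10-month mice had received, over 28 days, an infusion into the lateral ventricles of either 0.8% DMSO vehicle (WT-D, n = 4, and 3xTg-D, n = 4) or 80 µM of the stearoyl-CoA desaturase inhibitor ab142089 (SCDi) in that vehicle (WT-S, n = 3, and 3xTg-S, n = 4).

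The WT controls were B6129SF2/J, a hybrid of C57BL/6J and 129S1 parents in which mice can carry different combinations of parental alleles. The 3xTg mice (Psen1tm1Mpm with Tg(APPSwe,tauP301L)1Lfa) carry human APPSwe and tauP301L transgenes, both under a Thy1.2 regulatory element that acts mainly in neurons, in a PS1M146V knock-in. Each group is one strain, so strain, genetic background and breeding line cannot be told apart. The untreated mice of 8 months and the infused mice of 10 months carry different series of animal numbers. Between them, age, infusion and series cannot be told apart. Reads of every library were aligned to GRCm38, which is the genome of C57BL/6J, and the genotype of the mice at these loci was not measured. In bulk tissue, fewer cells of a type and less RNA per cell cannot be told apart either. The 8 defining markers of hippocampal cells (Prox1, Wfs1, Neurod6, Slc17a7, Gad1, Gfap, Mbp and Cx3cr1) had reads in 23 of 23 libraries. The choroid plexus marker Ttr ranged from 1.49 to 314 CPM (1e6 times the count, divided by the sum of gene counts in the library). Libraries held 12.8M to 36.7M gene counts, so that 3 counts stood for 0.0818 to 0.234 CPM, and Pearson's r of log2 CPM over 14623 genes was 0.985 to 0.994 between libraries of the same group.

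A processed copy arises when a messenger RNA is copied back into DNA and inserted elsewhere in the genome. It lacks the introns of its gene and usually its promoter, and most copies are annotated as pseudogenes because they are not known to give a working protein. Genes for ribosomal proteins, glycolytic enzymes and tubulins have left many such copies in mammalian genomes. A short read from the messenger RNA can match the gene and a copy equally well or nearly so, and a single base then decides where it is counted. Here a read that mapped to several places was counted for no gene, and such reads made up 11.4% to 15.1% of all reads of a library.

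Of the 10 members, 5 are annotated as processed pseudogenes (Rpl3-ps1, Rps3a3, Gm8730, Gm15459 and BC002163) and 5 hold a protein-coding transcript (Rpl3, Rpl34, Rps3a1, Tuba1c and Eno1b). Alignment of the Gencode transcripts (release M21, GRCm38) gave each copy its gene. Rpl3-ps1 differed from Rpl3, a protein of the large ribosomal subunit, at 2 of 1210 aligned bases. Rps3a3 differed from Rps3a1, a protein of the small subunit, at 9 of 795, and Gm8730 differed from Rplp0, a protein of the ribosomal stalk, at 12 of 954. Gm15459 differed at 5 of 1941 bases from Hspa8, the constitutive heat shock protein HSC70, and BC002163 at 2 of 319 bases from Ndufs5, a subunit of respiratory complex I. Eno1b differed at 9 of 1652 bases from Eno1, the glycolytic enzyme alpha-enolase. Tuba1c is not a processed copy but an alpha-tubulin gene with 4 exons beside Tuba1b and Tuba1a, and it differed from Tuba1b at 19 of 1336 aligned bases.

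The sequences below show how few bases separate a gene from its copy. Each is a 60-base stretch of coding sequence on the strand of the transcript, 5′ to 3′, taken from the Gencode M21 transcripts on GRCm38, with the bases that differ between the 2 lines of a pair in capitals. For Rpl3 (exon 2, chr15:80082500-80082559, minus strand) and Rpl3-ps1 (chrX:13202598-13202657, plus strand) the stretch holds C137A, counted from the 5′ end of the transcript of the gene, which is 1 of only 2 differences. The other is T866C.
Rpl3: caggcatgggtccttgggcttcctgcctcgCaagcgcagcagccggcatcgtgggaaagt
Rpl3-ps1: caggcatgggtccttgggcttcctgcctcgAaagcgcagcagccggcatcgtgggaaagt
Rps3a1 is shown in exon 3 (chr3:86141326-86141385, minus strand) beside Rps3a3 (chr13:108670810-108670869, plus strand), with T349C and T393C.
Rps3a1: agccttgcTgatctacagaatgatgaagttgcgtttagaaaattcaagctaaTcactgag
Rps3a3: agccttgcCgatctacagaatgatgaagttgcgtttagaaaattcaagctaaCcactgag
Rplp0 is shown in exon 4 (chr5:115561168-115561227, plus strand) beside Gm8730 (chr8:102865352-102865411, minus strand), with A511G, A514G and A568T.
Rplp0: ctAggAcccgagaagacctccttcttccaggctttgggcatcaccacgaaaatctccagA
Gm8730: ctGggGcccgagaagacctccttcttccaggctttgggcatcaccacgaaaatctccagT
Hspa8 is shown in exon 2 (chr9:40802006-40802065, plus strand) beside Gm15459 (chr5:5783413-5783472, minus strand), with G484A.
Hspa8: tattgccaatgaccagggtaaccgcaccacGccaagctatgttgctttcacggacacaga
Gm15459: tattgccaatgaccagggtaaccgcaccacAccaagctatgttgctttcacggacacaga
Ndufs5 is shown in exon 1 (chr4:123715958-123716017, minus strand) beside BC002163 (chr16:42955693-42955752, plus strand), with T328C and A352G, which are all the differences of that pair.
Ndufs5: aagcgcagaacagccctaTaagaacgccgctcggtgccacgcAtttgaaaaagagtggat
BC002163: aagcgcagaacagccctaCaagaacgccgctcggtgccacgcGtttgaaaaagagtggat

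The sequencing kit gave 75 cycles. Every 75-base window of the aligned stretch of each copy was therefore looked up in the transcript of its gene. That stretch was 1336 of 1982 bases for Tuba1c and 1652 of 1791 bases for Eno1b, and the whole copy for the others. Windows of a gene were counted over the aligned stretch as well. Of the 1136 windows of Rpl3-ps1, 1003 (88.3%) occurred unchanged in Rpl3 and 133 were particular to the copy. The share found in the gene was 79.9% for Gm15459, 74.1% for Eno1b, 70.7% for Tuba1c, 59.6% for BC002163, 32.0% for Rps3a3 and 19.9% for Gm8730. For Rpl3, all 133 windows that told it from Rpl3-ps1 did so by a single base, and for Hspa8 all 375 windows that told it from Gm15459 did. In Rps3a1 417 of 721 windows, and in Rplp0 531 of 880, were 1 base away from the copy. A read of such a window that carries the copy's base at that position is identical to the copy.

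**Figure D1:**
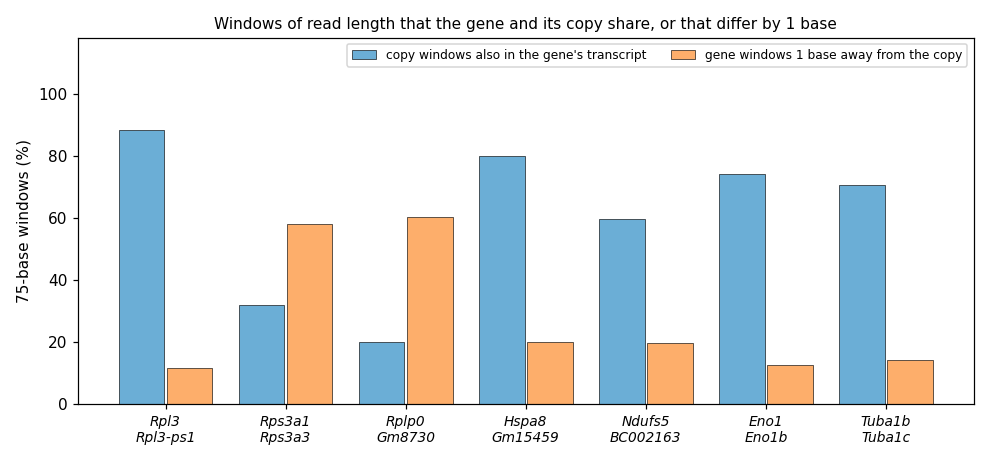
Share of 75-base windows (%) in the aligned stretch of each copy that also occur in the transcript of its gene (blue bars), for 7 pairs. Orange bars give the share of windows of the gene in that stretch that lie 1 base away from the copy. The blue bars run from 19.9% for Gm8730 to 88.3% for Rpl3-ps1.

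Rpl3 was low in WT-8M and at a steady higher level in the other 5 groups. It was at 5.32, 4.91, 4.31 and 4.18 CPM in the WT-8M libraries and at 39.9, 38.6, 35.2 and 44.4 CPM in the 3xTg-8M libraries, so the groups did not overlap. The mean was 4.68 ± 0.531 CPM (SD, n = 4) in WT-8M and 39.5 ± 3.80 CPM (SD, n = 4) in 3xTg-8M, an 8.45-fold difference. In the 15 libraries of 10 months Rpl3 lay between 35.7 and 50.9 CPM in both strains. The 2 vehicle groups overlapped, at 42.6 ± 1.75 CPM (WT-D) and 39.55 ± 4.10 CPM (3xTg-D, SD, n = 4 each).

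Rpl3-ps1, its copy on the X chromosome (plus strand, 13202571 to 13203780, in no other annotated gene), was the mirror image. It was at 27.6, 27.2, 24.5 and 21.9 CPM in WT-8M and between 0.626 and 1.63 CPM in the other 19 libraries. The widest gap between neighbours among the sorted libraries ran from 1.63 to 21.9 CPM for the copy and from 5.32 to 35.2 CPM for the gene, with the 4 WT-8M libraries alone on one side in both. The copy held 83.8% to 85.04% of the reads counted for the pair in WT-8M and 1.47% to 3.91% elsewhere. In WT-8M replicate 1 the share was 83.8% with a 95% Wilson interval of 81.7% to 85.8%, and all such intervals cover counting error only. The sum of both was still lower in WT-8M, at 32.9, 32.1, 28.8 and 26.1 CPM, than in 3xTg-8M, at 40.8, 39.5, 36.6 and 46.0 CPM. Over all libraries the coefficient of variation (CV) was 41.9% for Rpl3, 178% for Rpl3-ps1 and 15.3% for their sum.

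Tuba1c, an alpha-tubulin that pairs with beta-tubulin in microtubules, had the same step as Rpl3-ps1. It was at 26.8, 26.7, 25.2 and 23.7 CPM in WT-8M and between 0.150 and 0.740 CPM in the other 19 libraries of both strains and ages. The mean of 25.6 ± 1.47 CPM in WT-8M was 64.7-fold that of 0.396 ± 0.183 CPM in 3xTg-8M (SD, n = 4 each). The strains overlapped at 10 months, for example under vehicle at 0.268 ± 0.119 CPM (WT-D) and 0.477 ± 0.214 CPM (3xTg-D, SD, n = 4 each).

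Unlike the other pairs, Tuba1c did not rise where a relative fell. Tuba1b was at 63.8, 67.3, 74.6 and 58.3 CPM in WT-8M and between 56.0 and 92.3 CPM in the other libraries, and Tuba1a lay between 192 and 328 CPM throughout. The sum of Tuba1b and Tuba1c was therefore higher in WT-8M, at 82.0 to 99.8 CPM, and varied more (CV 17.7%) than Tuba1b alone (CV 12.9%). The processed copy Gm14150, which also matches alpha-tubulin and is named after its values were seen, was at 3.63 to 4.48 CPM in WT-8M and at no more than 0.505 CPM in any other library.

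Rpl34, a protein of the large subunit, stepped in WT mice only. In WT-8M it was at 4.77, 3.56, 3.33 and 3.97 CPM. In WT-D it was at 3.53, 5.64, 27.8 and 29.0 CPM, and in WT-S at 20.6, 32.9 and 31.5 CPM. The 12 3xTg libraries lay between 28.4 and 46.3 CPM. The widest gap, from 5.64 to 20.6 CPM, had 4 WT-8M and 2 WT-D libraries below it. At 8 months the groups did not overlap (3xTg-8M 35.4 ± 7.82 CPM, WT-8M 3.91 ± 0.633 CPM, SD, n = 4 each, 9.07-fold), and under vehicle and under inhibitor they overlapped.

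No annotated copy of Rpl34 was high where Rpl34 was low. Of its 16 annotated processed copies, none reached a mean of 1 CPM, and the highest mean was 0.0711 CPM. The closest, Rpl34-ps1, differs from Rpl34 at 2 of 354 aligned bases and had at most 1 count in any library. Copies outside the annotation were not examined here, since no genome sequence was used.

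Rps3a1 and Rps3a3 shifted against each other in WT mice in 3 bands. Rps3a1 was at 44.4, 100.2, 42.2 and 42.9 CPM in WT-8M, at 45.6, 44.8, 1.38 and 1.49 CPM in WT-D and at 89.1, 1.95 and 4.06 CPM in WT-S. Rps3a3, on chromosome 13 within Pde4d, a gene of the same strand, was at 28.4, 0.427, 31.4 and 28.9 CPM in those WT-8M libraries, at 29.3, 33.1, 55.7 and 57.0 CPM in WT-D and at 0.154, 65.3 and 54.9 CPM in WT-S. Thus each library that was low for the gene was high for the copy.

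The share of Rps3a3 in the reads of the pair fell, when sorted shares were split wherever neighbours lay more than 5 percentage points apart, into bands of 0.0699% to 2.26% (2 WT libraries and all 12 of 3xTg), 38.97% to 42.6% (5 WT libraries) and 93.1% to 97.6% (4 WT libraries). In 3xTg, Rps3a1 lay between 74.8 and 121 CPM and Rps3a3 between 0.0676 and 2.79 CPM. The sum was 57.1 and 58.5 CPM in the 2 WT-D libraries with the highest share and between 80.4 and 93.1 CPM in 3xTg-D. The CV was 56.6% for the gene, 134% for the copy and 20.8% for the sum. A closer copy exists, since Rps3a2 differs from Rps3a1 at 4 of 792 bases, but it had at most 6 counts in any library.

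Gm8730, the copy of Rplp0, was the only copy here that was high in every 3xTg library. It was at 14.6, 13.04, 13.1 and 15.1 CPM in 3xTg-8M, at 11.8, 10.7, 14.01 and 12.5 CPM in 3xTg-D and at 13.1, 14.1, 14.3 and 11.2 CPM in 3xTg-S. In WT-8M no library had more than 2 counts, so that 3xTg-8M was at least 89.2-fold higher against a floor of 3 counts per library. The other WT libraries were at 0, 6.24, 0.0658 and 5.60 CPM in WT-D and at 0.0770, 0.216 and 7.33 CPM in WT-S. WT and 3xTg did not overlap in any of the 3 comparisons, and within WT the values stepped from 0.216 to 5.60 CPM.

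Rplp0 ran the other way, with 77.1 to 97.2 CPM in WT-8M and 32.4 to 43.3 CPM in 3xTg-8M. In the WT libraries of 10 months, Rplp0 was at 64.4 and 63.5 CPM where Gm8730 was at 6.24 and 5.60 CPM, at 65.0 CPM where it was at 7.33 CPM, and between 83.3 and 97.1 CPM in the other 4. The share of Gm8730 in the pair was 0% to 0.222% in 8 WT libraries, 8.11% to 10.1% in 3 WT libraries and 24.8% to 30.9% in all 12 3xTg libraries. The sum did not level the strains. It was 87.7 CPM on average in WT-8M and 51.8 CPM in 3xTg-8M, and its CV was 30.6% against 44.6% for Rplp0. A further copy of Rplp0, Gm9625 on chromosome 13, had 2.70 to 4.04 CPM in 3xTg-8M and 0.245 to 0.712 CPM in WT-8M.

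**Figure D2:**
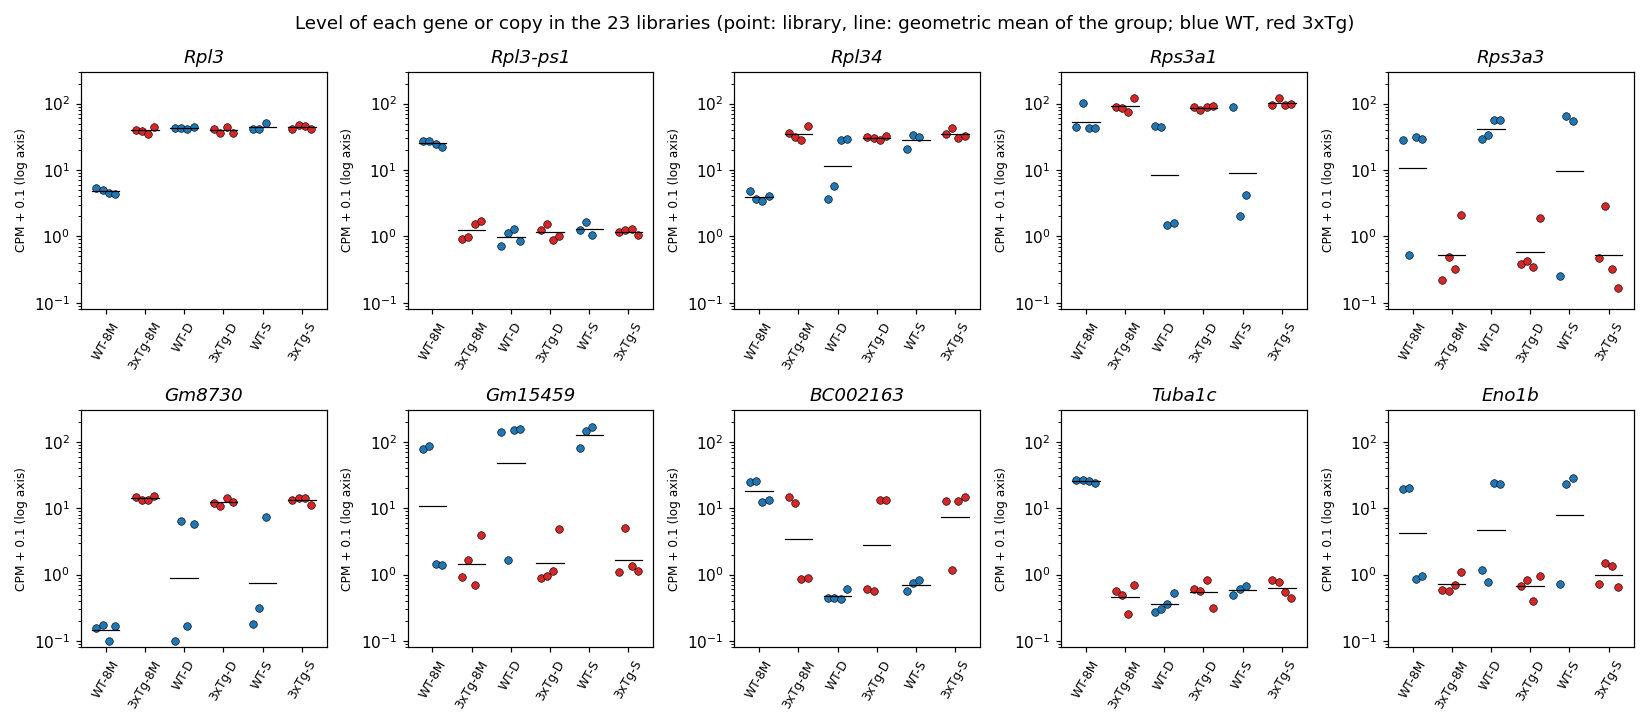
CPM plus 0.1 on a log axis for the 10 genes and copies in 23 libraries (points; blue WT, red 3xTg) by group, with the geometric mean of the group as a line. Rpl3, Rpl3-ps1 and Tuba1c set the 4 WT-8M libraries apart from the other 19. Rpl34, Rps3a1, Rps3a3, Gm8730, Gm15459, BC002163 and Eno1b step within groups.

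Gm15459, the copy of the chaperone gene Hspa8 on chromosome 5, was high in most WT libraries and low in all of 3xTg. It was at 77.5, 85.1, 1.36 and 1.30 CPM in WT-8M, at 139.9, 1.54, 149 and 156 CPM in WT-D and at 79.2, 146 and 168 CPM in WT-S. The 12 3xTg libraries lay between 0.600 and 4.84 CPM, which left the strains overlapping at 8 months and under vehicle but not under inhibitor. Hspa8 was at 221, 246, 401 and 430 CPM in the same WT-8M libraries, at 101, 367, 109 and 114 CPM in WT-D and at 249, 114 and 135 CPM in WT-S, against 323 to 422 CPM in 3xTg.

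The share of Gm15459 fell into bands of 0.162% to 1.48% (3 WT and 12 3xTg libraries), 24.1% to 26.0% (3 WT libraries) and 55.5% to 58.0% (5 WT libraries). In WT-D, 3 libraries had shares of 57.96%, 57.8% and 57.9%, each with an interval within 56.3% to 59.4%, so that these intervals overlapped. The sum ran from 241 to 432 CPM with a CV of 15.5%, against 37.6% for Hspa8. It was 241, 258 and 270 CPM in the 3 WT-D libraries of the upper band, and 260 and 302 CPM in the 2 WT-S libraries of that band. Gm6210, the other copy of Hspa8 with a mean of at least 1 CPM, lay between 0.396 and 1.88 CPM.

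BC002163 and its gene Ndufs5, an accessory subunit of complex I, stepped within groups of 3xTg, within WT-8M and between groups of WT. BC002163 was at 24.6, 25.6, 12.3 and 13.2 CPM in WT-8M and at 14.4, 12.03, 0.751 and 0.782 CPM in 3xTg-8M. In 3xTg-D it was at 0.505, 0.462, 13.1 and 13.4 CPM, and in 3xTg-S at 12.8, 1.06, 12.7 and 14.7 CPM. All 7 WT libraries of 10 months lay between 0.329 and 0.725 CPM. The strains overlapped at 8 months and under vehicle, and under inhibitor they did not.

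The share of BC002163 was 1.51% to 4.12% in 12 libraries (7 WT, 5 3xTg), 53.0% to 56.8% in 9 (2 WT, 7 3xTg) and 94.1% and 95.7% in 2 WT-8M libraries. In those 2 libraries Ndufs5 was at 1.55 and 1.14 CPM, the lowest of the 23, where its highest value was 29.2 CPM. The sum lay between 18.7 and 29.97 CPM and had the smallest CV of the 7 pairs, 10.95%, against 46.1% for Ndufs5 and 108% for BC002163. Its strain means differed by -0.01 (8 months), 0.10 (vehicle) and 0.09 (inhibitor) on the log2 scale, 3xTg minus WT, while those of BC002163 differed by -1.44, 4.19 and 4.07.

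Eno1b, annotated as protein-coding with 2 exons, was high in 6 of 11 WT libraries and in none of 3xTg. It was at 19.4, 20.01, 0.757 and 0.856 CPM in WT-8M, at 1.08, 0.671, 23.9 and 23.4 CPM in WT-D and at 0.616, 23.02 and 28.4 CPM in WT-S. The 12 3xTg libraries lay between 0.304 and 1.39 CPM. Eno1 was at 58.6, 58.2, 65.1, 71.0, 69.5 and 83.3 CPM in the 6 WT libraries with a high Eno1b, and between 144 and 170 CPM in the other 5.

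The share of Eno1b in the pair was 24.8% to 26.8% in those 6 libraries and 0.201% to 0.808% in the other 17. Adding the copy did not bring these libraries to the level of the others. The sum was 78.0 to 112 CPM in the 6 libraries and 144 to 183 CPM in the 17, and its CV was 23.5% against 31.5% for Eno1.

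**Figure D3:**
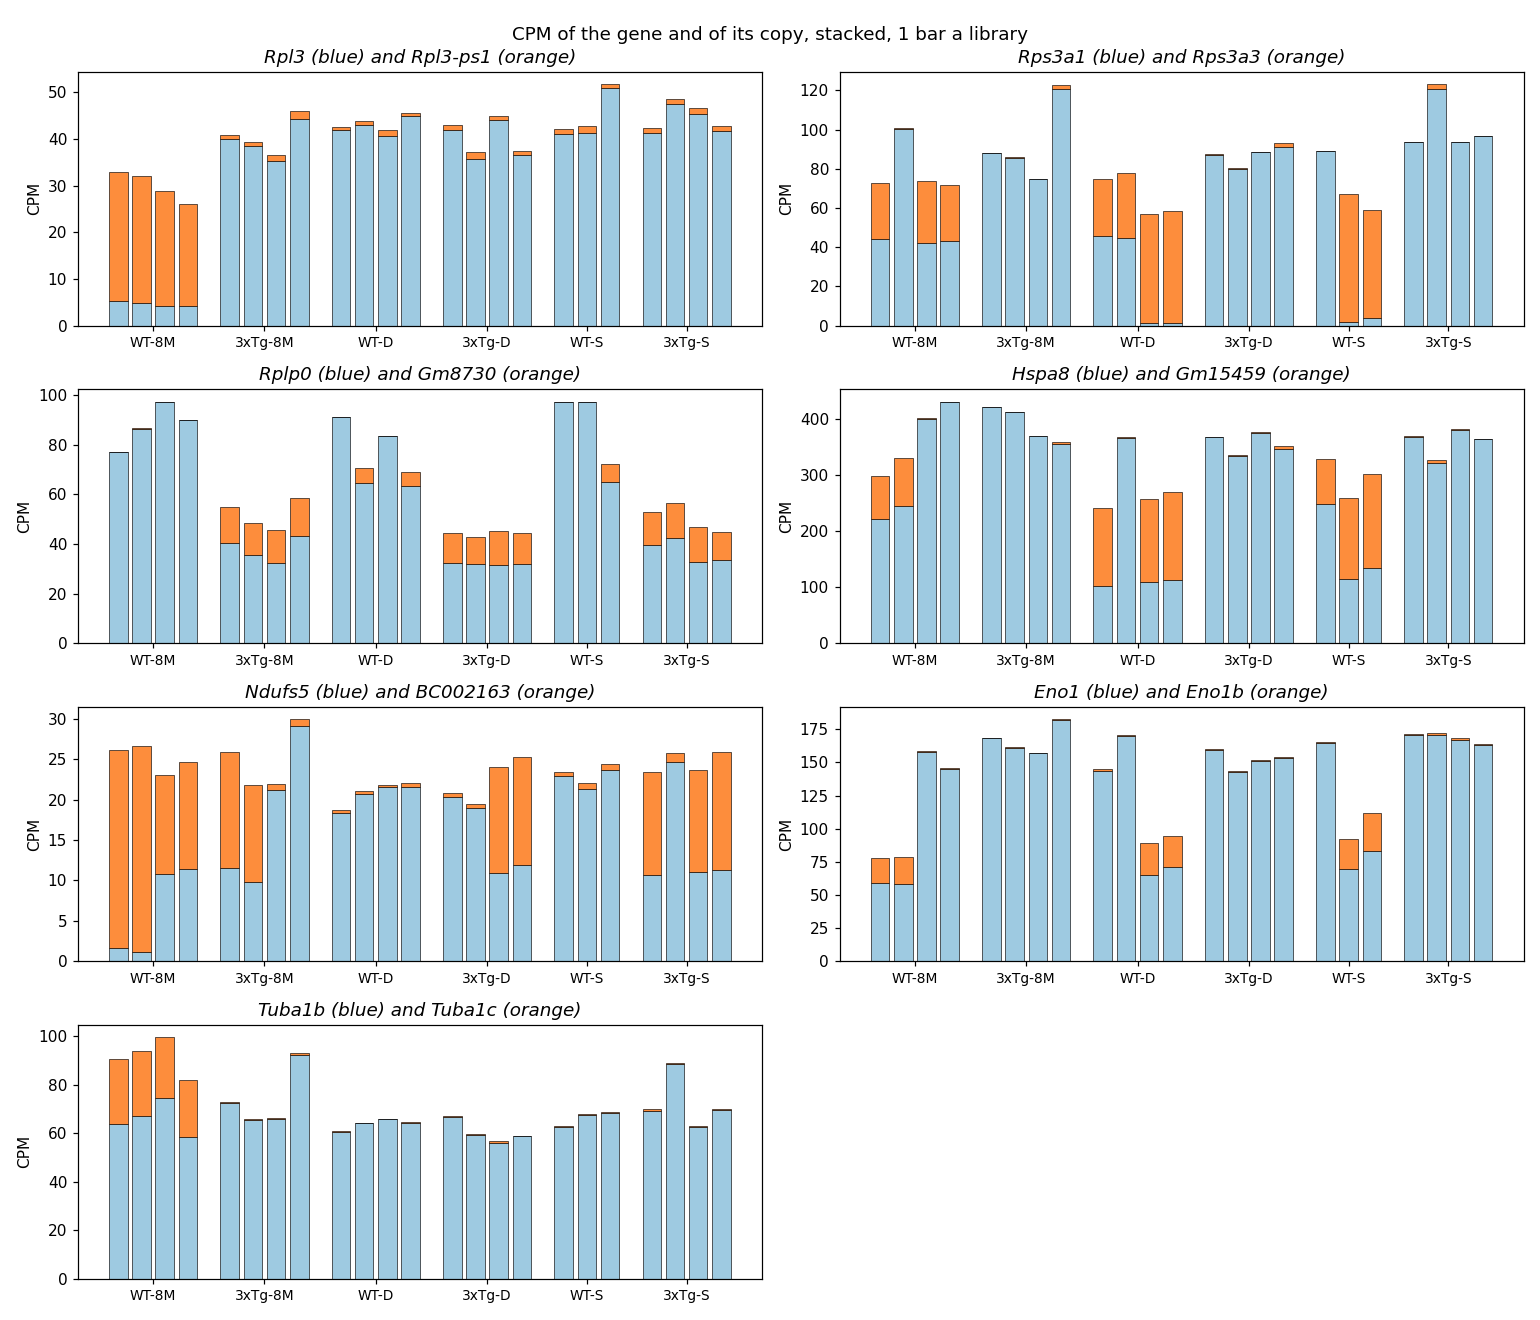
CPM of each gene (blue) with its copy stacked on it (orange), 1 bar a library, in 7 panels with linear axes from 0. The tops of the bars stay between 18.7 and 29.97 CPM for Ndufs5 with BC002163 while the orange part ranges from 0.329 to 25.6 CPM, whereas the tops fall to 78.0 CPM for Eno1 with Eno1b.

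**Figure D4:**
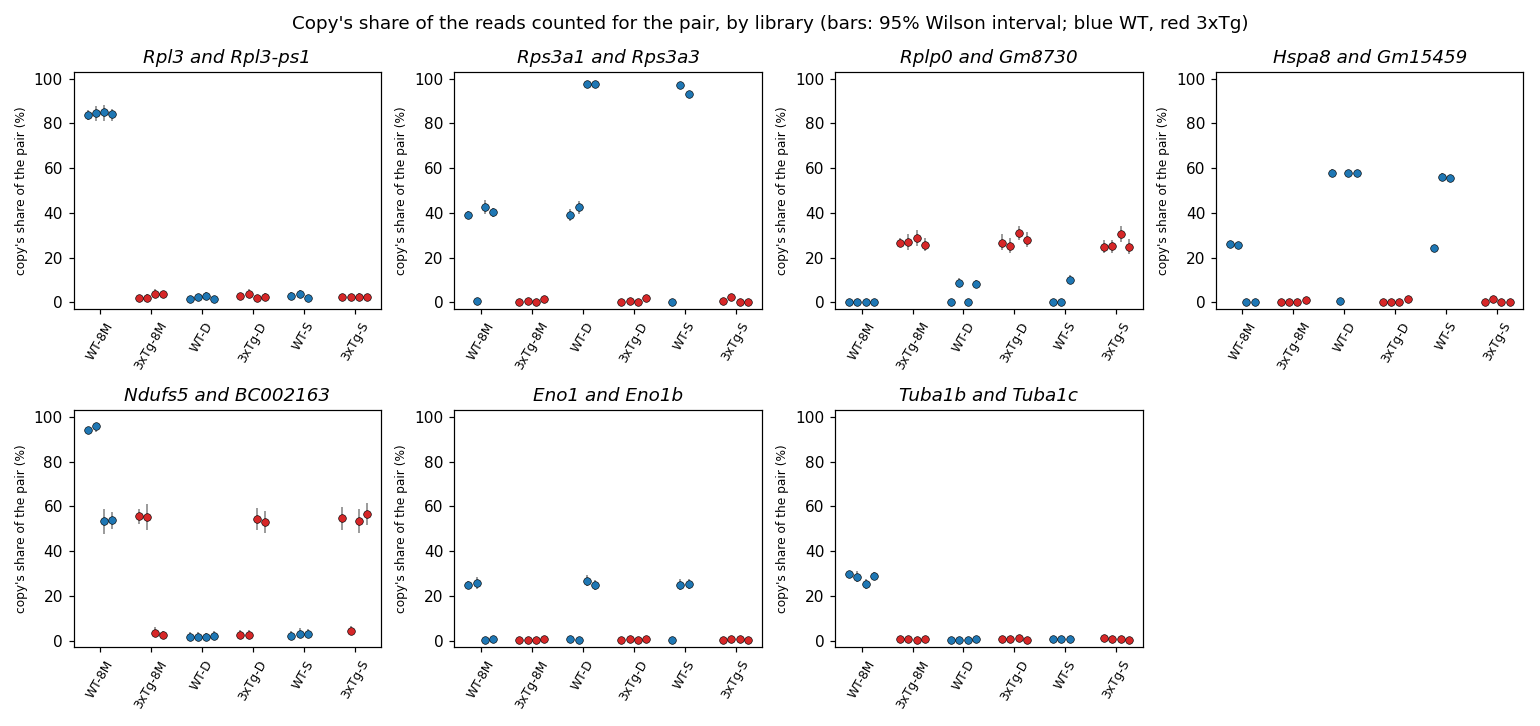
Share of the copy (%) in the reads counted for gene and copy, by library and group, with 95% Wilson intervals as bars (blue WT, red 3xTg). Shares lie in 2 or 3 bands, for example 0.0699% to 2.26%, 38.97% to 42.6% and 93.1% to 97.6% for Rps3a3.

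In 3xTg, 3 libraries carried more reads on 2 of the copies than the other 9. Rps3a3 was at 2.02, 1.81 and 2.79 CPM in 3xTg-8M replicate 4, 3xTg-D replicate 4 and 3xTg-S replicate 2, and at 0.391 CPM or less in the other 9. Gm15459 was at 3.91, 4.81 and 4.84 CPM in the same 3 libraries and at 1.56 CPM or less in the others. Ttr, the choroid plexus marker, was at 314, 21.3 and 210 CPM in these libraries and between 1.49 and 82.4 CPM in the other 9. Its part in the result was not tested.

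Steps between neighbouring libraries of a group are uncommon among all genes. Among the 14623 genes that averaged 1 CPM or more, 1.03% to 1.74% had a gap of more than 1 on the log2 scale (pseudocount 0.1 CPM) between neighbours within a group, depending on the group. Of the 10 members, which were chosen for steps, 3 to 5 did in each group. In WT-D these were Rpl34, Rps3a1, Gm8730, Gm15459 and Eno1b. In each 3xTg group they were Rps3a3, Gm15459 and BC002163. For Rps3a3 and Gm15459 the gap there lay at a low level, in 3xTg-D from 0.330 to 1.81 CPM and from 1.03 to 4.81 CPM.

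For 3 of 6 copies, the 3 genes with the most similar levels over the 23 libraries lay on the chromosome of the gene and not of the copy. By Pearson's r of log2 CPM over the 23 libraries, which differ in strain and age, Rpl3-ps1 was most like Tuba1c (0.967), A730060N03Rik (0.873) and Card10 (0.849), all on chromosome 15 with Rpl3. For Gm8730, on chromosome 8, these were Gm42829 (0.946), Fzd10 (0.908) and Stbd1 (0.906), all on chromosome 5 with Rplp0. For Gm15459, on chromosome 5, they were Fxyd2 (0.928), 2900052N01Rik (0.909) and Atp5l (0.882), all on chromosome 9 with Hspa8. The chromosomes were compared after these values were seen. Only relatives of a member were left out of these lists, so other members could enter. Tuba1c was itself chosen for its steps, and its place beside Rpl3-ps1 restates that choice.

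The other copies had a less uniform list. Rps3a3 was most like 4930481B07Rik (0.947) and Gm8276 (0.874), on chromosome 3 with Rps3a1, and Eif3s6-ps2 (0.869). BC002163 was most like Ppt1 (0.880), on chromosome 4 with Ndufs5, Papss2 (0.791) and Tax1bp1 (0.746). Eno1b was most like Samd11 (0.880), on chromosome 4 with Eno1, E030013I19Rik (0.876) and Umad1 (0.850). Among the genes proper, Rpl3 was most like Olfr287 (0.943), Slc11a2 (0.932) and Pnpla3 (0.873), all on its chromosome. Rpl34 was most like Cisd2 (0.914), Utp18 (0.905) and Zgrf1 (0.899), Rps3a1 most like Cthrc1 (0.943), Rpl30 (0.924) and Fcrls (0.919), and Tuba1c most like Rpl3-ps1 (0.967), A730060N03Rik (0.872) and Card10 (0.846).

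Among the 20 genes with the strongest correlation of either sign, 13 (65.0%) lay on chromosome 15 for Rpl3-ps1, against 4.0% of all genes, and 0 on the X chromosome. The share on the chromosome of the gene was 50.0% for Gm8730, 45.0% for Gm15459, 35% for Eno1b, 30.0% for Rps3a3 and 15% for BC002163, against 5.1% to 6.5% of all genes there. On the copy's own chromosome there were 2 of 20 for Gm8730 and 0 of 20 for the other 5 copies. The median distance of those genes to the gene itself was 5.4 Mb for Rpl3-ps1, 6.1 Mb for Gm15459, 9.1 Mb for Gm8730 and 18.3 Mb for Rps3a3. Over the 11 WT libraries alone the counts were 9 of 20 for Rpl3-ps1, 6 for Gm15459, 4 for Rps3a3, 4 for Eno1b, 3 for Gm8730 and 1 for BC002163. On the copy's own chromosome they were then 4 for Gm8730, 2 each for Gm15459 and Eno1b, 1 for BC002163 and 0 for Rpl3-ps1 and Rps3a3. The 3 genes most like Gm8730 in WT were Crat (0.962), Mbtps1 (0.953) and Ptpn23 (0.948), on chromosomes 2, 8 and 9 and none on chromosome 5. For Rpl3-ps1 in WT they were Tuba1c (0.989), on chromosome 15 with Rpl3, BC002163 (0.985) and Zfp846 (0.978). Tuba1c and BC002163 are themselves members, and in WT they and Rpl3-ps1 were high only in WT-8M. For Gm15459 in WT they were Ninl (0.918), Cd34 (0.916) and 2900052N01Rik (0.884), of which only the last lies on chromosome 9 with Hspa8. These are descriptions, since neighbouring genes share libraries and were not tested, and other members could be among the 20.

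**Figure D5:**
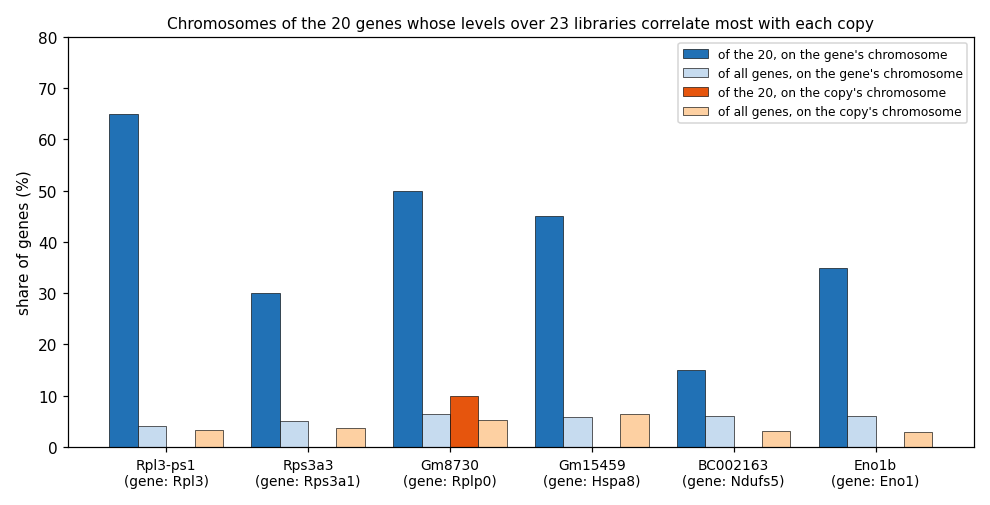
For each of 6 copies, the share (%) of the 20 most correlated genes that lie on the chromosome of its gene (dark blue) or of the copy (dark orange), each beside the share of all 14623 genes there (pale). The dark blue bars run from 15% to 65.0% and the pale ones do not pass 6.5%.

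The difference between inhibitor and vehicle was not used to choose the members, so it was tested. Their choice did use the levels of these same libraries, and steps within a group widen its spread. For members that stepped within these groups, a lack of calls is partly set by that choice and does not show an absent effect. In 3xTg mice, edgeR's quasi-likelihood test called 0 of 15530 genes (0%) between 3xTg-S and 3xTg-D at an adjusted p under 0.05, with 1733 at an unadjusted p under 0.05, and the DESeq2 likelihood ratio test called 15. Of the 10 members, 8 passed the filter on low counts, all but Rps3a3 and Tuba1c, and 0 were called. Rps3a1 came closest, higher with inhibitor by 0.21 ± 0.08 (log2, SE) with an adjusted p of 0.384. For Rpl3 the difference was 0.15 with a 95% interval of -0.02 to 0.32, and for Gm8730 it was 0.10 with an interval of -0.14 to 0.33. For BC002163, whose libraries stepped within both groups, the interval ran from -1.14 to 2.28.

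In WT mice, 0 of 15724 genes (0%) were called between WT-S and WT-D by edgeR, with 538 at an unadjusted p under 0.05, and 0 by DESeq2. Again 8 members passed the filter, all but BC002163 and Tuba1c, and 0 were called, with a smallest adjusted p of 0.981. Rpl3, which did not step at 10 months, differed by 0.04 with an interval of -0.13 to 0.22. The intervals of the members that stepped within WT were wide, from -2.26 to 3.10 for Rps3a1, from -3.02 to 2.59 for Gm8730, from -1.48 to 1.89 for Gm15459 and from -1.75 to 2.74 for Eno1b. Changes within these intervals could thus not have been told from the spread between these libraries. The widest gaps between sorted libraries were 3.35 for Rps3a1, 4.17 for Gm8730, 3.97 for Gm15459 and 3.7 for Eno1b (log2). They lie between single libraries of both strains and ages, so they cannot be set against these intervals for a difference between 2 WT groups.

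The difference of the inhibitor effect between strains was tested over the 15 libraries of 10 months, and edgeR called 0 of 16262 genes (0%), with 377 at an unadjusted p under 0.05 and 0 by DESeq2. Here 9 members passed the filter, all but Tuba1c, and each had an adjusted p of 1. Rps3a3 had not passed in 3xTg alone, nor BC002163 in WT alone, so each entered through the strain where it was high, with intervals of -3.39 to 4.47 for Rps3a3 and -3.63 to 3.42 for BC002163. For Rpl3 the interaction was 0.11 with an interval of -0.13 to 0.35.

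Few other genes of the same pathways were called between strains. In the comparison of strains at 8 months edgeR called 2.58% of 15483 genes, under vehicle 1.39% of 15528 and under inhibitor 1.32% of 15664. Members and the genes of the copies were left out of the lists, because the selection used their counts. Of the other 75 cytosolic ribosomal proteins, 74 were tested at 8 months and 1 was called (1.35%). Rpl29, of the large subunit, was higher in 3xTg by 1.32 ± 0.14 (log2, SE, adjusted p of 0.000199). Rpl29 was also higher under vehicle (0.83 ± 0.14, adjusted p of 0.0121) and under inhibitor (1.16 ± 0.11, adjusted p of 0.000135). It was the only call of the list under vehicle, and under inhibitor Rpl30, also of the large subunit, was called with it (0.96 ± 0.12, adjusted p of 0.00147). The median log2 change of the list was 0.05, -0.05 and 0.03 in the 3 comparisons, against 0.01, 0.00 and 0.00 for all genes.

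Of 11 tubulins, 10 of them tested at 8 months, Tubg1, the gamma-tubulin of microtubule organising centres, was higher in 3xTg-8M by 0.37 ± 0.08 (log2, SE, adjusted p of 0.0354), and 0 were called under vehicle or inhibitor. Of 15 glycolytic genes and of 35 subunits of complex I, 0 were called in any of the 3 comparisons of strains. Their median log2 changes lay between -0.07 and 0.02 for glycolysis and between -0.07 and 0.12 for complex I. In the inhibitor comparisons 0 genes of the 4 lists were called.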

How the data were processed

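Hippocampal mRNA of 23 mice was sequenced (KAPA mRNA Hyperprep, single-end reads, 75-cycle kit). Per the submitters' processing notes and the study's methods, the authors trimmed reads with Trimmomatic 0.35, aligned them with STAR 2.5.1b to GRCm38 with Gencode annotation, and deposited raw counts of reads per gene, neither normalised nor pooled. The strand setting and any collapsing of molecular identifiers are not given in the sources used here. Reads of a copy inside another gene can therefore not be assigned by strand. Besides Rps3a3 in Pde4d, BC002163 overlaps Zbtb20 and Eno1b overlaps AC150274.2, each on the same strand. Gm15459 overlaps Gm26825 on the opposite strand. The 4 lines that name no gene (24.7% to 30.9% of reads) were left out. CPM are 1e6 times the count over the sum of gene counts in the library, not divided by gene length.

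Members and gene lists were chosen with earlier results of these data known. The labels name each mouse by number, no 2 libraries held identical values, and groups were taken from the labels. In WT-8M and 3xTg-8M, replicates 1 and 2 carry consecutive numbers, as do replicates 3 and 4. BC002163 in both groups, and Gm15459 and Eno1b in WT-8M, stepped between those pairs of mice. Rps3a1 and Rps3a3 instead set WT-8M replicate 2 apart. Whether such mice were related is not given in the labels and was not tested. Fits were made pair by pair, without the other groups, in edgeR 4.0.16 (filterByExpr, TMM, quasi-likelihood test, R 4.3.3), and Benjamini-Hochberg adjusted p under 0.05 over all genes tested was called. The SE is the log2 fold change over the square root of F, and intervals use the t distribution of the fit. The fit was tested on simulated data. Named genes are the members, the gene of each copy, other annotated copies that averaged 1 CPM or more, and the 3 genes most correlated with each member. Transcripts of Gencode M21 were compared with blastn 2.17.0+ (at least 85% identity over 150 bases) and aligned pairwise. Alternatives were DESeq2 1.42.0 size factors and likelihood ratio test, no filter, 1 fit of all 15 libraries of 10 months, a block of animal numbers, each library left out, TMM scaling, all annotated copies in the sums and a pseudocount of 1 CPM in place of 0.1 CPM.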

Additional observations from a re-analysis of the deposited data

Results flagged for a closer look

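A library stood far from the other 3 of its group (Dixon's criterion) in 11 of the 50 groups of 4 tested, where chance alone flags about 1 in 20. Groups of 3 were not tested, and members of a pair share reads, so the flags are not independent. The genes were selected because their levels lie in steps across these libraries, so the number of flags restates that selection and is no evidence beyond it.

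Rps3a1 was at 100.2 CPM in WT-8M replicate 2, against 42.2 to 44.4 CPM in the other 3, and Rps3a3 was at 0.427 CPM in that library, against 28.4 to 31.4 CPM. Gm15459 was at 1.54 CPM in WT-D replicate 2, against 139.9 to 156 CPM. BC002163 was at 1.06 CPM in 3xTg-S replicate 2, against 12.7 to 14.7 CPM.

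The other flags were differences at a low level or within the upper step. Rps3a3 was at 2.02 CPM in 3xTg-8M replicate 4, at 1.81 CPM in 3xTg-D replicate 4 and at 2.79 CPM in 3xTg-S replicate 2, against at most 0.391 CPM in the rest of those groups. Gm15459 was at 4.81 CPM in 3xTg-D replicate 4 and at 4.84 CPM in 3xTg-S replicate 2, against at most 1.24 CPM. BC002163 was at 0.498 CPM in WT-D replicate 4, against 0.329 to 0.341 CPM, and Rps3a1 was at 120.5 CPM in 3xTg-S replicate 2, against 93.5 to 96.7 CPM.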

How the results depend on the processing

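Without a filter on low counts, the genes called numbered 112 for the inhibitor in 3xTg, 2 in WT and 8 for the interaction, in place of 0. Between strains they then numbered 350 higher and 504 lower in 3xTg at 8 months (in place of 162 and 237), 430 and 362 under vehicle (99 and 117) and 362 and 367 under inhibitor (96 and 110). The DESeq2 likelihood ratio test called 15 genes for the inhibitor in 3xTg, 275 higher and 409 lower at 8 months and 185 and 201 under vehicle. Leaving out each library gave 0 to 1 genes for the inhibitor in 3xTg (1 without 3xTg-S replicate 3) and in WT (1 without WT-S replicate 3) and 0 for the interaction. It gave 85 to 191 higher and 140 to 258 lower at 8 months, with 87 and 140 without 3xTg-8M replicate 1, 85 and 156 without 3xTg-8M replicate 2, and 106 higher without WT-8M replicate 2. Under vehicle it gave 51 to 97 higher and 74 to 115 lower, with 51 and 74 without 3xTg-D replicate 2 and 58 higher without 3xTg-D replicate 4. Under inhibitor it gave 36 to 139 higher and 69 to 147 lower, with 36 and 69 without 3xTg-S replicate 1, 43 and 71 without 3xTg-S replicate 4, and 63 and 51 higher without WT-S replicates 2 and 3. DESeq2 size factors in the 6 comparisons, the fit of all 15 libraries of 10 months and the block of animal numbers moved no count by over 1.5 times. The cause of these changes was not tested.

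No member or gene of a copy was called for the inhibitor or the interaction in the 554 alternative values that had an adjusted p. DESeq2 gave none for 8 more, all in 3xTg (Rpl3-ps1, Rpl34, Gm8730, Gm15459, BC002163, Eno1b, Rplp0 and Ndufs5). The sign changed in 67 of the 562, and the adjusted p of members ranged from 0.203 to 1 in 3xTg and from 0.792 to 1 in WT, at 1 for the interaction. The log2 strain ratio of the pair sums moved by less than 1 SD between replicates under all 203 alternative values, and the pseudocount changed the libraries above the widest gap for 0 of 10 members. The DESeq2 test and the omission of libraries for the interaction, and the 11 WT libraries for the most correlated genes, were chosen after seeing the data. At 3 counts a library allows 0.0818 to 0.234 CPM, which limits Gm8730 in WT-8M, and the steps in WT leave wide intervals for the inhibitor. The labels give the groups no shared replicate numbers. The block of consecutive animal numbers, run for the inhibitor in 3xTg, called 0 genes, as did the fit without it.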

Other observations

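Members whose genes lie on the same chromosome stepped in the same libraries on chromosome 15 but not on chromosomes 3 and 4. On chromosome 4, Ndufs5 and Eno1 both stood low in WT-8M replicates 1 and 2 (BC002163 at 94.1% and 95.7% of its pair, Eno1b at 24.8% and 25.6%), but in WT-D replicates 3 and 4 Eno1b held 26.8% and 24.8% of its pair while BC002163 held 1.51% and 2.26%. On chromosome 3, Rpl34 was at 3.56 CPM in WT-8M replicate 2, where Rps3a3 held 0.425% of its pair, and at 27.8 and 29.0 CPM in WT-D replicates 3 and 4, where Rps3a3 held 97.6% and 97.5%. On chromosome 15, Rpl3 and Tuba1c stepped between the same libraries, with the 4 WT-8M libraries alone on one side. Members whose genes lie on different chromosomes also had similar levels. BC002163 and Tuba1c correlated at 0.993 over the 11 WT libraries, though at 0.56 over all 23. In WT both were high only in WT-8M, so the value of 0.993 follows the difference between WT-8M and the infused WT mice. Age, infusion and series cannot be told apart in that difference. Gm15459 and Eno1b, with genes on chromosomes 9 and 4, correlated at 0.83 over the 23 libraries. These values were picked after the data were seen and no explanation was tested.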
